A study of Mus musculus with 6 samples.

Results

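Naive pluripotency regulators are the transcription factors and associated proteins that hold mouse embryonic stem cells in a state resembling the epiblast before implantation. The 10 genes described here are Esrrb, Tfcp2l1, Tbx3, Nr5a2, Nr0b1, Prdm14, Nanog, Zfp42, Gbx2 and Dppa3. They were taken by symbol from a table of 55401 genes, with the Klf factors left out, and all 10 were found and had enough counts to be tested. RNA was sequenced from 3 libraries (A, B and C) of wild-type (WT) V6.5 cells and 3 libraries of Cdh1-/- V6.5 cells, here called the knockout. V6.5 is a mouse embryonic stem cell line from a hybrid embryo, and Cdh1 encodes E-cadherin, the protein that holds neighbouring stem cells together and binds beta-catenin on its inner side. The labels name no treatment, passage or culture medium, and do not say whether the knockout libraries came from 1 clone or from separate cultures. The p-values therefore measure the spread between libraries, which may be technical.

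The naive state is sustained by inputs that converge on these genes. The cytokine LIF acts through Stat3 on targets that include Tfcp2l1 and Gbx2, and beta-catenin relieves repression by Tcf7l1 at genes such as Esrrb, Nanog and Tfcp2l1. When cells leave the naive state most of these regulators are switched off and formative genes such as Otx2 are switched on. The series is titled for the effect of E-cadherin on beta-catenin, so the comparison asks whether the transcripts of this network differed once E-cadherin was disrupted.

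In the knockout, Tfcp2l1 and Gbx2 rose and Dppa3 fell, while the other 7 regulators had adjusted p-values above 0.05 (edgeR, quasi-likelihood). The 3 called genes among 10 compare with 13.3% of all 17325 tested genes. Higher calls numbered 2 of 10 against a background of 7.6%, and lower calls 1 of 10 against 5.71%. The median log2 fold change was 0.31 for the regulators and -0.0071 for all tested genes. At an unadjusted p under 0.05 there were 6 of 10 regulators, against 26.7% of all tested genes. In 3 regulators (Tfcp2l1, Nr5a2 and Dppa3) the knockout libraries did not overlap the WT libraries, a share near the 30.7% found over all tested genes.

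Several features of the whole data set bear on these values. The libraries held between 18020719 and 23381942 counts, with knockout A the smallest. Cdh1 itself, the check of the labels, lay between 537 and 571 CPM (counts scaled to a common library total) in WT and between 166 and 183 CPM in the knockout, a log2 fold change of -1.70 (SE 0.08, edgeR adjusted p 2.9e-08). The second principal component set knockout A (43.5) apart from knockout B (-11.7) and knockout C (-25.8), and WT C (-23.8) apart from WT A (8.86) and WT B (8.99). The median log2 fold change of genes on chromosome 1 was -0.33 and that of genes on chromosome 14 was 0.53, against values between -0.045 and 0.061 for the other autosomes, the X chromosome and the mitochondrial genome. The 6 tested genes of chromosome Y had a median of -2.56. Among the regulators 4 lie on chromosome 1 and none on chromosome 14. Core pluripotency genes were abundant in all libraries, with Pou5f1, the gene of Oct4, between 423 and 553 CPM and Sox2 between 496 and 573 CPM.

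Promoters of called genes are shown here for Tfcp2l1 and Gbx2, since Dppa3, the other called gene, had no entry in the promoter table. Each is the 250 bases before the transcription start in RefSeq on GRCm38.p6, written 5′ to 3′ on the strand of the gene, with capitals marking CpG dinucleotides. Of the 10 regulators 7 had an entry in the promoter table, and Dppa3, Tbx3 and Prdm14 did not.
Tfcp2l1, chr1:118627695-118627944, plus strand: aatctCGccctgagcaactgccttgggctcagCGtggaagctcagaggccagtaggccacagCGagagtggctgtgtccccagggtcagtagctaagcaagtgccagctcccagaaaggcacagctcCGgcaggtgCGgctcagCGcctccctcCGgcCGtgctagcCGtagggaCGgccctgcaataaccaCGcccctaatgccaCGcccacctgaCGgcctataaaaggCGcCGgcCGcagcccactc
Gbx2, chr1:89931177-89931426, minus strand: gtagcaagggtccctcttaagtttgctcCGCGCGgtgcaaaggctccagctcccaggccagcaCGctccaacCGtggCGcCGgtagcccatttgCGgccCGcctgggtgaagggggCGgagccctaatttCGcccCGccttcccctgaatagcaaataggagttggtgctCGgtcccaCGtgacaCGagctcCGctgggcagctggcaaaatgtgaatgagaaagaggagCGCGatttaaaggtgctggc

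The Tfcp2l1 stretch holds 16 CpG dinucleotides and the Gbx2 stretch 18, against a median of 6 over the 32851 promoter windows of the table. Their GC contents were 65.2% and 61.6%, against a median of 52.4%. The windows, which run 50 bases past the start, were searched on both strands for 4 motifs. These were CAAGGTCA, which Esrrb and Nr5a2 are both known to bind, CTTTGAT of TCF and LEF factors, TTCCNGGAA of Stat factors, and the octamer core TTTGCAT of Oct4. Neither window held any of them. CAAGGTCA occurred in 1.56% of all windows, CTTTGAT in 3.73%, TTCCNGGAA in 1.15% and TTTGCAT in 4.63%.

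Among the 7 regulators with an entry, only the octamer core was found, in Nanog and in Zfp42. The matches are printed with their flanks, in capitals, since these are the regulators with the highest levels per length and the Nanog match is the known joint Oct4 and Sox2 element.
Nanog, chr6:122707402-122707431, plus strand: cttacagcttctTTTGCATtacaatgtcca
Zfp42, chr8:43307177-43307206, minus strand: tctgaagaggcaTTTGCATaactgagcaag

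Nanog has a pair of annotated starts, and the match began 75 bases before one and 151 bases before the other. The Zfp42 match began 185 bases before the RefSeq start of that gene. Bases just after that start, and after the Nanog start 75 bases from the match, were not found in GENCODE M21 transcripts of these genes. The distances therefore hold for the RefSeq starts only. Neither Nanog nor Zfp42 passed the test between genotypes.

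**Figure D1:**
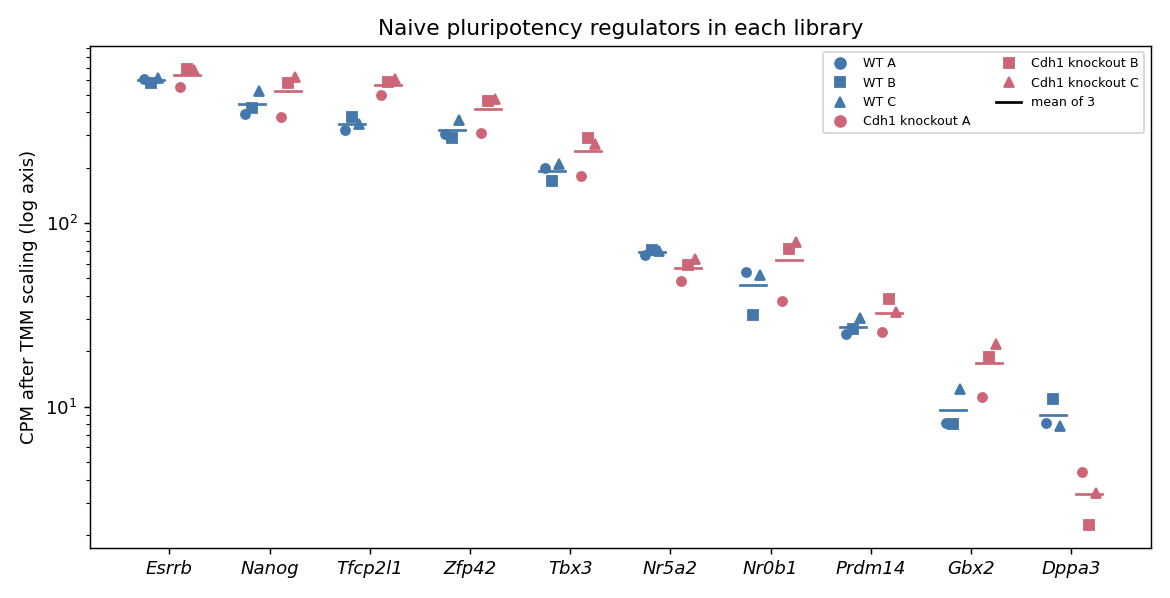
Level of each regulator in each of the 6 libraries, in CPM after TMM scaling on a log axis, with blue for WT, red for the knockout, a marker shape for each replicate letter and a line at the mean of 3. Knockout libraries lie above all WT libraries for Tfcp2l1 and below them for Dppa3 and Nr5a2.

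The regulators spanned a wide range of levels, which were compared between genes as CPM per kilobase of exon. In WT the order from the highest was Nanog at 198 ± 30.3, Zfp42 at 169.5 ± 20.6, Esrrb at 107 ± 3.25, Tfcp2l1 at 37.5 ± 3.15, Tbx3 at 36.9 ± 4.12, Nr0b1 at 25.4 ± 6.86, Nr5a2 at 12.5 ± 0.435, Dppa3 at 10.8 ± 2.11, Prdm14 at 10.6 ± 1.08 and Gbx2 at 4.47 ± 1.18 (SD, n = 3). The ranges of the libraries overlapped between Nanog and Zfp42, between Tfcp2l1 and Tbx3, and in the run from Nr5a2 through Dppa3 to Prdm14, so the order within these is not resolved. Nanog stood above 98.7% of tested genes in WT and Gbx2 above 47.2%. In the knockout the first 6 places were the same by mean. Ranges again overlapped between Nanog and Zfp42 and between Tfcp2l1 and Tbx3, and here also between Tbx3 and Nr0b1, so that order is not resolved. Below them came Prdm14 at 12.6, Nr5a2 at 10.2, Gbx2 at 8.08 and Dppa3 at 4.03, with overlapping ranges between neighbours. Exon lengths are those deposited with the counts, summed over all annotated isoforms, so a level per kilobase is understated for a gene whose longer isoforms are not used.

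Tfcp2l1 encodes a transcription factor of the Grainyhead-related CP2 family that acts downstream of LIF and of Tcf7l1. Its level was 319.6, 378 and 345 CPM in WT A, B and C, and 496, 586 and 606 CPM in knockout A, B and C. Every knockout library lay above every WT library, with knockout A the lowest of its group. The means were 347 ± 29.2 CPM and 562 ± 58.9 CPM (SD, n = 3 each), a log2 fold change of 0.69 (SE 0.10, adjusted p 0.000222 in edgeR). The gene (ENSMUSG00000026380.10) spans chr1:118627946-118685168 on the plus strand in GRCm38. It was called in each of the 6 fits that left out 1 library, with log2 fold changes from 0.64 to 0.78.

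Gbx2, a homeobox factor and a known target of Stat3 in stem cells, was the least abundant regulator per length in WT. Its level was 8.10, 8.08 and 12.5 CPM in WT A, B and C, and 11.2, 18.6 and 21.9 CPM in knockout A, B and C. Knockout A lay below WT C, so the groups overlapped. The log2 fold change was 0.86 (SE 0.23, adjusted p 0.0242 in edgeR). In 4 of the 6 fits with 1 library left out Gbx2 was no longer called. Its adjusted p was 0.123 when WT A was dropped, 0.130 for WT B, 0.0918 for knockout B and 0.130 for knockout C. Gbx2 (ENSMUSG00000034486.8) spans chr1:89927956-89931179 on the minus strand, and 32.3% of its exon bases lie under the noncoding gene D130058E05Rik on the opposite strand. The level of that neighbour averaged 4.85 ± 1.01 CPM over the WT libraries and 4.05 ± 1.30 CPM over those of the knockout (SD, n = 3 each). The kit keeps strand, but whether featureCounts used it is not given in the sources used here, so reads of the pair may not be fully separated.

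Dppa3, also called Stella, protects methylation of the maternal genome after fertilization and marks primordial germ cells, and in stem cell cultures it is known to be expressed in some cells only. Its level was 8.10, 11.01 and 7.85 CPM in WT A, B and C, and 4.42, 2.27 and 3.38 CPM in knockout A, B and C. All knockout libraries lay below all WT libraries, and here knockout A was the highest of its group. The log2 fold change was -1.43 (SE 0.26, adjusted p 0.00178 in edgeR), and 37.4% of the WT mean was left. These levels rest on 52 to 218 counts per library. Bulk RNA cannot tell fewer cells expressing a gene from less RNA per cell. Dppa3 (ENSMUSG00000046323.8, chr6:122626410-122630272, plus strand) was called in each of the 6 fits without 1 library, with log2 fold changes from -1.67 to -1.19. Its pseudogene Dppa3-ps had at most 4 counts in any library.

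The pair of nuclear receptors showed small differences. Esrrb, an orphan receptor that occupies many of the sites of Oct4, Sox2 and Nanog, was counted at 605, 579 and 615 CPM in WT A, B and C and at 550.1, 691 and 682 CPM in knockout A, B and C. Knockout A was the lowest and knockout B the highest of the 6 libraries, so the groups overlapped (log2 fold change 0.10, SE 0.09, adjusted p 0.568). Nr5a2, which binds the same kind of site and supports Pou5f1 transcription, had 66.7, 71.0 and 70.7 CPM in WT A, B and C and 48.1, 58.7 and 63.3 CPM in the knockout libraries. The Nr5a2 groups did not overlap, but the log2 fold change of -0.29 (SE 0.11) missed the threshold with an adjusted p of 0.0922. With library totals in place of TMM scaling it passed, at an adjusted p of 0.0488. Nr0b1, or Dax1, is an atypical receptor that binds Nr5a2 and Oct4, and its level was 53.8, 31.6 and 52.4 CPM in WT A, B and C against 37.5, 72.0 and 78.7 CPM in the knockout. WT B and knockout A were the low libraries for Nr0b1, and its log2 fold change of 0.45 (SE 0.23, adjusted p 0.229) was within the spread between libraries.

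Nanog, the homeobox factor that allows self-renewal without LIF when it is overexpressed, was counted at 392, 420.0 and 521 CPM in WT A, B and C and at 376, 581 and 619.8 CPM in knockout A, B and C. Knockout A was the lowest of all libraries while B and C exceeded every WT library (log2 fold change 0.24, SE 0.15, adjusted p 0.347). Zfp42, the zinc finger gene known as Rex1 and used as a reporter of the naive state, had 303, 290.4 and 363 CPM in WT and 309.7, 463 and 474 CPM in knockout A, B and C (log2 fold change 0.38, SE 0.14, adjusted p 0.0863). For Zfp42, knockout A fell among the WT libraries. The pseudogene Zfp42-ps1 averaged 12.8 ± 0.804 CPM over the WT libraries and 15.7 ± 5.17 CPM over those of the knockout (SD, n = 3 each), and how reads were divided between it and Zfp42 is not known. Tbx3, a T-box factor of the LIF network that is also linked to extraembryonic endoderm, had 199, 168 and 209 CPM in WT and 179, 289 and 271 CPM in knockout A, B and C (log2 fold change 0.36, SE 0.14, adjusted p 0.126). Prdm14, which represses FGF receptor signalling and DNA methyltransferase genes, had 24.9, 26.5 and 30.3 CPM in WT and 25.5, 38.7 and 32.9 CPM in knockout A, B and C (log2 fold change 0.26, SE 0.15, adjusted p 0.293). For all 4 of these genes knockout A stayed below the highest WT library and knockout B and C lay above every WT library.

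**Figure D2:**
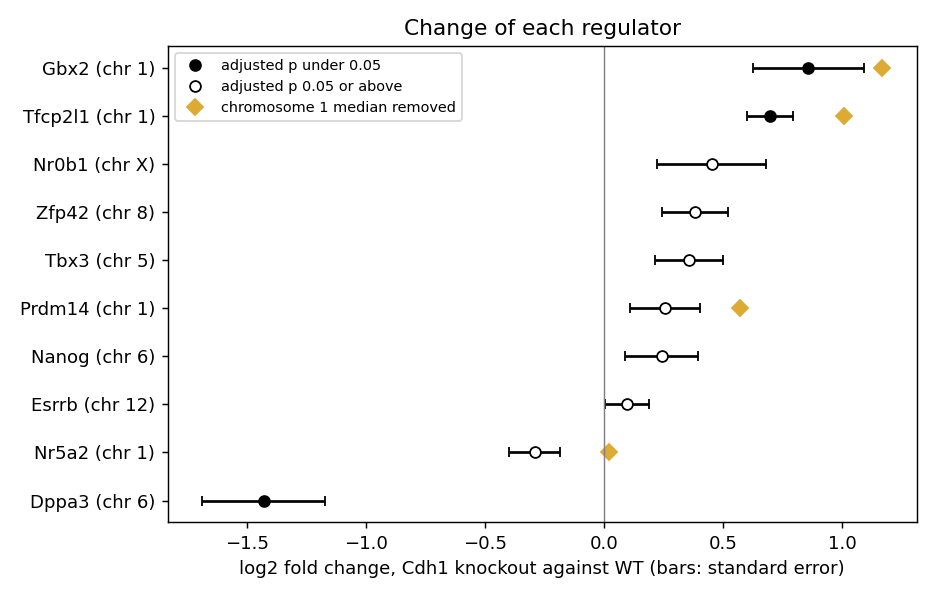
Log2 fold change of each regulator in the knockout against WT, with its standard error as a bar and filled circles for genes called at an adjusted p under 0.05. Diamonds give the value of the 4 chromosome 1 genes after the median of that chromosome was removed, which moves each of them upward, Nr5a2 to 0.020.

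Knockout A stood apart from knockout B and C in these genes. It was the lowest knockout library for 9 of 10 regulators and the highest for Dppa3, whereas it was the lowest for 37.2% of all tested genes. Some other lists were alike, with knockout A the lowest of its group for 10 of 12 other genes of the naive state, 8 of 10 core pluripotency genes and 9 of 10 primitive endoderm markers. In further lists the share was smaller but still above 37.2%. These were 7 of 10 formative and primed genes, 6 of 11 family relatives, 5 of 8 2-cell-like markers and 7 of 16 inputs and brakes of the network. The share was below 37.2% only in the remaining lists. There knockout A was the lowest for 2 of 8 trophoblast, 1 of 10 germ cell and 0 of 6 feeder fibroblast markers. It lay below the WT mean for 8 of 10 regulators, against 50.6% of tested genes. The summed level of the 10 regulators was 2037 CPM in knockout A, 2800 CPM in B and 2853 CPM in C, against 1981 to 2227 CPM in WT. On the log2 scale the difference of knockout A from the mean of B and C was -1.002 for Nr0b1, -0.84 for Gbx2, -0.67 for Nanog, -0.64 for Tbx3 and -0.27 for Tfcp2l1, and 0.65 for Dppa3. The coefficient of variation was larger in the knockout than in WT for all 10 regulators, against 56.2% of tested genes. Whether depth, culture or another property of knockout A has a part in this was not tested.

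With knockout A left out, 8 of 10 regulators were called, 7 higher and 1 lower, against 15.5% of the 18000 genes tested in that fit. The 5 that joined were Nr0b1 (log2 fold change 0.71, adjusted p 0.00291), Zfp42 (0.56, adjusted p 0.000347), Tbx3 (0.54, adjusted p 0.000500), Nanog (0.43, adjusted p 0.00580) and Prdm14 (0.40, adjusted p 0.0392). Esrrb (0.20) and Nr5a2 (-0.19) were not called in that fit either. It leaves 2 knockout libraries, and without the other libraries in turn the count was 2 or 3. Without a filter on low counts 7 regulators were called, with Nr0b1, Zfp42, Tbx3 and Nanog among them, against 8.63% of the 32417 genes with a count. Those genes include many that the filter had dropped for low counts, so this share is not like that of the 17325 filtered genes. For Nr0b1 the log2 fold change went from 0.45 to 0.48 and the adjusted p from 0.229 to 0.000642 (edgeR), so its size hardly moved. DESeq2 called the same 3 genes as edgeR.

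**Figure D3:**
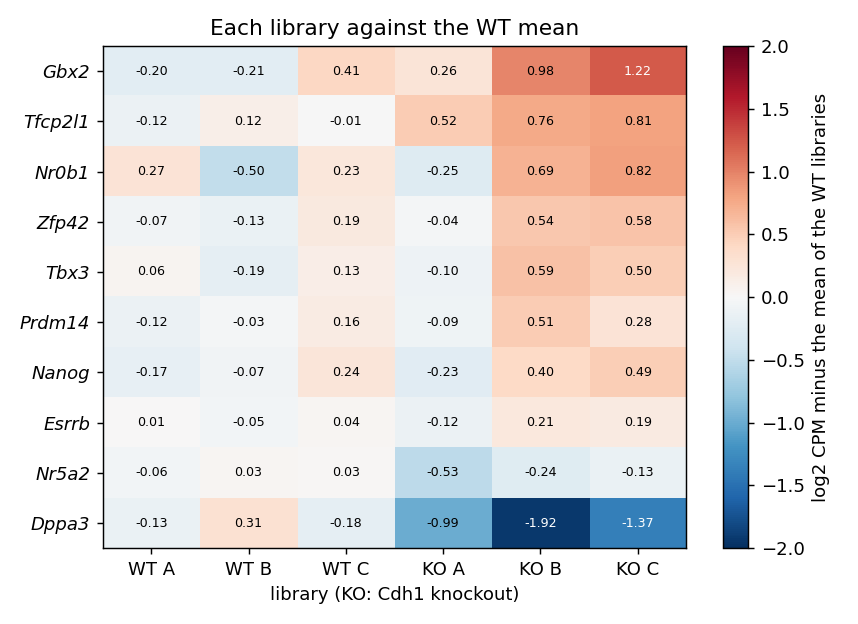
Log2 CPM of each regulator in each library minus the mean of the WT libraries, in red above and blue below that mean. The column of knockout A is near or below 0 except for Tfcp2l1 (0.52) and Gbx2 (0.26), while the columns of knockout B and C are above 0 for all genes but Nr5a2 and Dppa3.

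**Figure D4:**
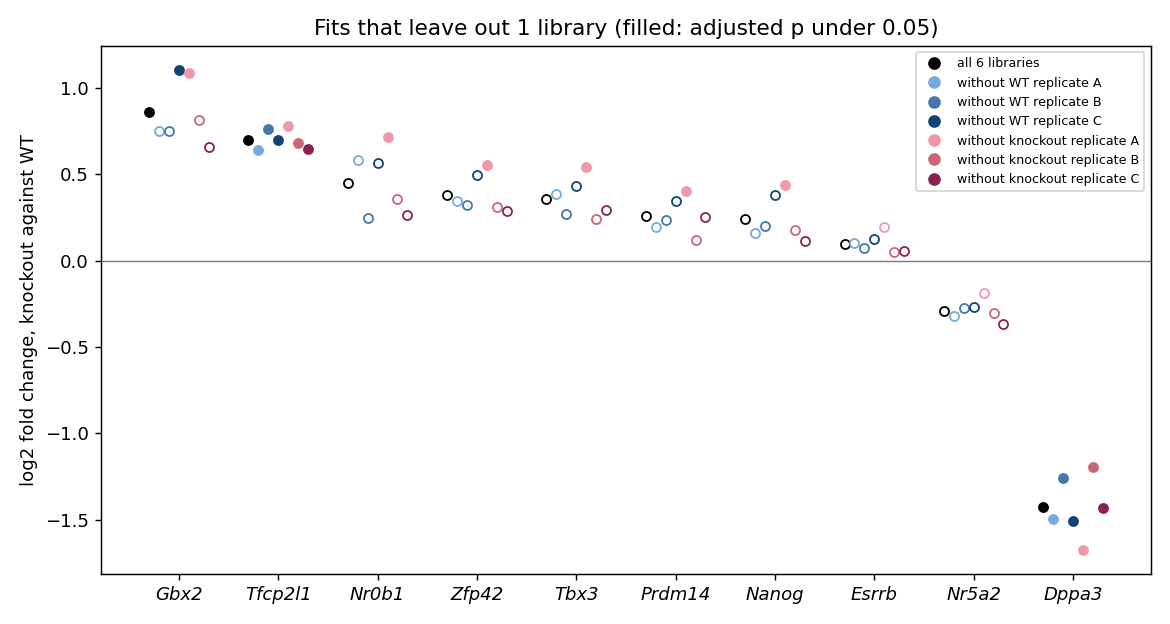
Log2 fold change of each regulator with all libraries and with 1 library left out, filled where the adjusted p was under 0.05. Tfcp2l1 and Dppa3 are filled in every fit, Gbx2 in 3 of its 7, and the fit without knockout A adds Nr0b1, Zfp42, Tbx3, Prdm14 and Nanog.

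Position on chromosome 1 is shared by Tfcp2l1, Gbx2, Prdm14 and Nr5a2. Among the 1002 tested genes of that chromosome 29.6% were called and 1.8% were called higher. Gbx2 ranked 21 and Tfcp2l1 ranked 28 from the highest log2 fold change among these genes, Prdm14 ranked 77 and Nr5a2 ranked 451. After the median of the chromosome in each library was removed, the log2 fold change was 1.17 for Gbx2 (adjusted p 0.00431), 1.01 for Tfcp2l1 (adjusted p 1.1e-05) and 0.57 for Prdm14 (adjusted p 0.0229). Prdm14 thus passed the threshold relative to its chromosome although it did not pass it before. Nr5a2 then stood at 0.020 (adjusted p 0.936), so that its level differed from WT by about as much as the typical gene of chromosome 1. The copy number of the chromosome was not measured.

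The genes beside each called regulator were compared with it. Around Tfcp2l1, the nearest tested genes were Nifk (log2 fold change -0.31), Clasp1 (-0.51, adjusted p 0.00132), Gli2 (0.29) and Gm29456 (-0.28), of which Clasp1 alone was called, lower. Around Gbx2 they were Sh3bp4 (-0.27), Agap1 (-0.59, adjusted p 0.00517), D130058E05Rik (-0.26) and Ackr3 (-0.037), of which Agap1 alone was called, lower. Dppa3 lies 77.2 kb from Nanog in a cluster of genes active in stem cells and germ cells. Its nearest tested genes, Apobec1 (0.34), Gdf3 (-0.23), Gm10420 (0.11) and Gm10224 (-0.37), were not called. None of the 12 neighbours was called in the direction of the regulator beside it. Only 1.8% of the tested genes of chromosome 1 were called higher, and 5.71% of all tested genes were called lower. Such calls were thus unlikely among so few genes, and their absence says nothing about a local effect.

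The genes most like each called regulator over the 6 libraries were found by the root-mean-square distance of log2 CPM centred on the WT mean, among 9777 genes with at least 10 CPM. For Tfcp2l1 they were Setd2, a histone methyltransferase, and Mapkapk3, a stress-activated kinase, at distances of 0.03 and 0.05. For Gbx2 they were Epop, a partner of Polycomb complexes and elongin, and Klhl42, at 0.11 and 0.13. Epop had 158, 125 and 223 CPM in WT A, B and C and 183, 332 and 408 CPM in knockout A, B and C. It shares the low knockout A of Gbx2 because it was picked for its likeness over these same libraries. For Dppa3 they were Ephx2, an epoxide hydrolase gene on chromosome 14, and Map7d3, at 0.20 and 0.23.

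Genes that work beside the regulators were counted from lists. Over all tested genes 13.3% were called, 7.6% higher and 5.71% lower, and 26.7% had an unadjusted p under 0.05. Among 12 other genes of the naive state, 4 rose and 3 fell. Zfp57, which protects imprints, averaged 234 ± 18.3 CPM in WT and rose to 653 ± 204 CPM (SD, n = 3 each), a log2 fold change of 1.48. The others that rose were Klf4, Klf5 and Fgf4, with log2 fold changes of 1.12, 0.79 and 0.29. The genes that fell were Fbxo15 (log2 fold change -0.63), Klf2 (-0.60) and Pecam1 (-0.57), so the Klf factors of this list did not move in 1 direction. Klf5 lies on chromosome 14. Of 10 core pluripotency genes, Tdgf1, a co-receptor for Nodal, rose (0.63) and the RNA-binding factor gene Lin28a fell (-0.79). In the list of 16 inputs and brakes of the network 2 rose and none fell at the threshold, with 6 at an unadjusted p under 0.05. They were Tfe3 (0.53), a factor that promotes Esrrb expression when nuclear, and Ncoa3 (0.42), a coactivator of Esrrb. The LIF receptor gene Lifr (0.073), Tcf7l1 (0.32) and Ctnnb1 (0.073), which encodes beta-catenin, did not pass.

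Of 10 tested formative and primed genes, 5 fell and 1 rose, against 5.71% called lower and 7.6% called higher over all tested genes. Otx2, the factor that opens the formative programme, was counted at 35.3, 25.7 and 34.8 CPM in WT A, B and C and at 2.76, 6.86 and 8.48 CPM in knockout A, B and C (log2 fold change -2.39, adjusted p 4.2e-05 in edgeR). Zic2 (-1.43), which like Otx2 lies on chromosome 14, and Dnmt3a (-0.57) fell, and Etv4 (0.63), a target of FGF signalling, rose. The summed level of this list was 585 to 676 CPM in WT and 424 CPM in knockout A, 506 CPM in B and 525 CPM in C. Gene by gene, knockout A was the lowest of its group for 7 of the 10.

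Relatives of the regulators in their own families mostly did not pass, with 2 of 11 called against 13.3% of all tested genes. Of 11 tested relatives, Ubp1, a CP2 factor like Tfcp2l1, rose (0.65), and Prdm1, known as Blimp1, fell (-1.36). Tfcp2 (-0.010), Esrra (0.33) and Gbx1 (-0.18) were not called. Nr5a1, the closest relative of Nr5a2, had at most 6 counts in any library.

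Markers of other cell types that stem cell cultures can hold were measured in the same libraries. All 10 primitive endoderm markers were called higher, against 7.6% of all tested genes. Their summed level was 471 to 615 CPM in WT and 1117 to 2069 CPM in the knockout. Log2 fold changes were 2.18 for Sox7 on chromosome 14, 2.15 for Sox17 on chromosome 1 and 1.82 for Col4a1. The knockout level of Foxa2 was at least 3.71-fold higher, its WT libraries holding no more than 6 counts apiece. The list was at 1117 CPM in knockout A, 1358 CPM in B and 2069 CPM in C. Within its group knockout C had the highest level of all 10 endoderm markers and of 6 of the 10 regulators. In the other lists this count ran from 0 of 6 feeder fibroblast markers and 3 of 12 other naive-state genes to 5 of 8 trophoblast and 6 of 8 2-cell-like markers. The share over all tested genes was not counted, so the 6 of 10 shows no link with the endoderm markers. The summed level of the regulators differed less, at 2800 CPM in knockout B and 2853 CPM in knockout C. No endoderm marker was at or under 6 counts in every library. The part of the endoderm markers in the values of the regulators was not tested.

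Of 10 germ cell markers, which matter because Dppa3 and Prdm14 act in primordial germ cells, 3 fell and none rose at the threshold, with 5 at an unadjusted p under 0.05. Over all tested genes 5.71% were called lower and 26.7% had an unadjusted p under 0.05. The 3 germ cell markers that fell were Prdm1, Tfap2c (-1.06) and Mael (-0.76), the last on chromosome 1. The summed list lay between 392 and 416 CPM in WT and between 284 and 328 CPM in the knockout. Among 8 tested markers of 2-cell-like cells 1 was called, against 13.3% of all tested genes. It was Sp110, also on chromosome 1 and at least 2.03-fold lower. The summed list lay at 24.9 to 58.8 CPM in WT and 10.7 to 28.8 CPM in the knockout. Trophoblast markers gave 1 call of 8 tested genes (Tfap2a, -1.99), with Elf5 at or under 6 counts in every library. Feeder fibroblast markers gave 1 call of 6 tested (Col1a1, -1.48), with sums of 42.4 to 66.8 CPM in WT and 35.0 to 49.0 CPM in the knockout, and with Lum and S100a4 at or under 6 counts in every library. The part of these cell types in the lower Dppa3 level was not tested.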

How the data were processed

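Per the labels, total RNA was made into libraries with a directional kit, 3 for WT and 3 for Cdh1-/- V6.5 cells, grouped here by sample title. Raw counts for each gene were deposited by the authors in 1 table. The submitters' processing notes name cutadapt 2.10, STAR 2.7.5b, featureCounts 2.0.1 and build GRCm38, with no settings. Of 55401 gene identifiers 55141 received a symbol. The deposited exons of 4 of the 10 members equal those of GENCODE M21. Between 78.1% and 83.1% of counts from 1 to 10 were even in each library, as when both mates of a pair are counted, so levels at or under 6 counts (0.262 to 0.332 CPM, a limit of counting error only) were treated as the floor.

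In R 4.3.3, edgeR 4.0.16 kept 17325 genes (filterByExpr, smallest count 10, smallest total 15), scaled by TMM, and fitted a quasi-likelihood model with genotype as its only term. The p-values were adjusted by Benjamini-Hochberg over all tested genes and called under 0.05. Each standard error is the log2 fold change divided by the square root of F. CPM values include the TMM factors. Log2 CPM used a prior count of 2. The per-library chromosome medians that were removed came from genes averaging 100 counts or more.

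Alternatives were other scalings, no filter, DESeq2 1.42.0, the replicate letter as a block, counts divided by 2, removal of the medians of chromosomes 1 and 14, and leaving out each library. The procedure was tested on simulated data of 17325 genes. It recovered 63 of 100 changes of 2-fold and 92 of 100 changes of 4-fold, with 13 false calls. The changes of the uncalled regulators were under 2-fold, so a gene that was not called may still differ. The members and lists were chosen with earlier results of these data known. The naming rule took every member, up to 4 called genes per additional list by size of change, 2 genes most like each called member and its 4 nearest tested genes. Other names (Pou5f1, Sox2, Klf2, Pecam1, Fgf4, Lifr, Tcf7l1, Ctnnb1, Tfcp2, Esrra, Gbx1, Nr5a1, the pseudogenes and the octamer flanks) were chosen after values were seen. Some genes are in more than 1 list.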

Additional observations from a re-analysis of the deposited data

How the results depend on the processing

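Over 14 alternatives the calls of Tfcp2l1 and Dppa3 held in each, with log2 fold changes from 0.64 to 1.01 and from -1.67 to -1.19. Leaving out 1 library gave 2 to 8 called regulators, a median log2 fold change of the regulators from 0.21 to 0.49, and 1374 to 2784 called genes in all. The 1374 were found without WT A and 1470 without WT B, against 2307 with all libraries. Without a filter on low counts 7 regulators were called, beside 8.63% of 32417 genes, many of them with few counts. Over the other 8 alternatives the median ran from 0.27 to 0.37 and all called genes from 1706 to 2799. With the medians of chromosomes 1 and 14 removed, Nr5a2 turned from -0.29 to 0.0204 (adjusted p 0.936), a shift that the removal itself makes. The cause of the other changes was not tested.

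The letters A, B and C name the libraries and are not said to mark a shared day. The deviations of same-lettered libraries correlated at 0.14 for A, -0.026 for B and 0.23 for C, and WT B correlated best with knockout A. With the letter as a replicate block 4 regulators were called, with Zfp42 added (log2 fold change 0.36, adjusted p 0.0284), the median was 0.29 and 2686 genes (15.5% of those tested) were called in all. Dppa3 and Gbx2 had the fewest counts of the 10 regulators, 52 to 435 per library, and with counts divided by 2 both were still called.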
